A study of Mus musculus with 10 samples.

Results

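The cadherin switch and epithelial identity regulators are 10 genes out of 34162 gene names in the expression table of mouse melanoma cells. They were chosen by name, with earlier results of these data known. They are the cadherins Cdh1, Cdh2 and Cdh3, the surface and junction genes Epcam and Cldn1, the splicing regulators Esrp1 and Esrp2, and the transcription factors Grhl2, Trp63 and Ovol1. All 10 were found, on 39 transcript rows, and the estimated counts of a gene's rows were added up. RNA was sequenced from cells of mice of a C57BL/6 and SV129 background, sorted by flow cytometry out of fresh tumours. The 10 libraries came from 4 groups: metastatic c-Myc-high cells (GFP-positive, metastatic lymph node, 3 libraries), metastatic c-Myc-low cells (GFP-negative, metastatic lymph node, 3 libraries), primary c-Myc-high cells (GFP-positive, skin tumour, 2 libraries) and primary c-Myc-low cells (GFP-negative, skin tumour, 2 libraries). The labels give no animal ages, driver alleles or reporter construct, and whether replicates are separate animals is not stated. Each p-value therefore speaks of the spread between these libraries and not necessarily between mice. The question of the design is how metastatic c-Myc-high melanoma cells differ from primary ones. The c-Myc-low cells allow the same comparison in the other fraction of the sort.

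Cadherins are calcium-dependent adhesion molecules of the cell surface, tied to actin through catenins. E-cadherin holds keratinocytes together and also holds normal melanocytes to them. In melanoma its loss beside a gain of N-cadherin is known as the cadherin switch, a part of the epithelial-mesenchymal transition in which cells give up epithelial junctions and splicing patterns.

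The libraries held 1603012 to 6844328 estimated counts, the fewest in primary c-Myc-high replicate 2. That library also had the fewest genes with 10 or more counts, 7932 against 9811 to 15630 in the other libraries. Myc lay between 124 and 303 CPM (counts scaled to a common library total) in metastatic c-Myc-high and between 132 and 363 CPM in metastatic c-Myc-low libraries. It was 818 and 69.5 CPM in primary c-Myc-high and 196 and 332 CPM in primary c-Myc-low libraries, so Myc RNA did not separate the sorted classes. The labelled cell type was checked against marker lists, each as a summed CPM. These lists too were chosen with earlier results of these data known. Melanocyte markers (12 genes) summed to 3262 to 26850 CPM in metastatic libraries and to 396 to 2336 CPM in primary libraries. The 18 keratinocyte markers summed to 45.9 to 129.9 CPM in metastatic libraries and to 23438 to 51196 CPM in primary libraries, where they exceeded the melanocyte sum in each of the 4 libraries. All 18 keratinocyte markers were lower in metastatic cells at an adjusted p under 0.05. Leukocyte markers (12 genes) summed to 115 to 14861 CPM in metastatic and to 4.72 to 519 CPM in primary libraries. Salivary gland markers (18 genes) stood apart in metastatic c-Myc-high replicates 1 and 3, at 194010 and 49900 CPM. In the other 8 libraries that sum was at most 1094 CPM. Several of the 10 genes are known in keratinocytes or in glandular epithelium, and the part these other cells have in the values below was not tested.

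**Figure D1:**
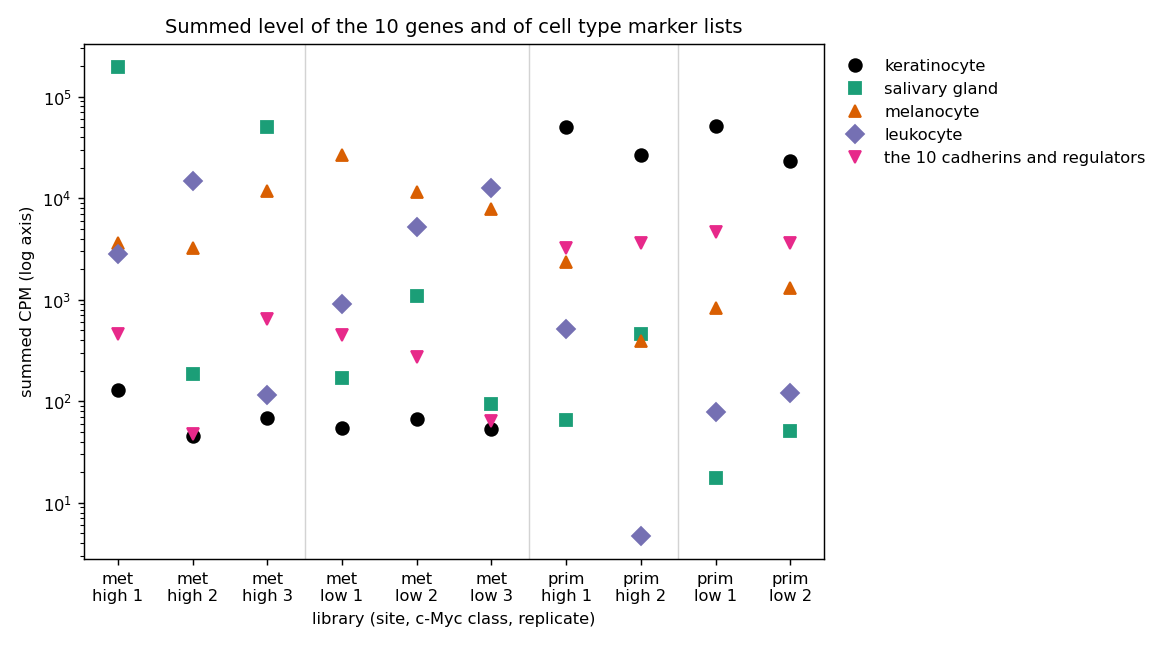
Summed CPM (log axis) of the 10 cadherins and epithelial regulators and of 4 marker lists in each of the 10 libraries, 1 point per library and list. The 10 genes together sit at 47.8 to 646 CPM in metastatic libraries and at 3260 to 4665 CPM in primary libraries, and the keratinocyte list is split by site in the same direction.

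Most of the epithelial genes were lower in metastatic than in primary cells. With both c-Myc classes weighted equally, Trp63, Esrp2, Cdh3, Cldn1, Esrp1 and Grhl2 were lower at an adjusted p under 0.05, which is 6 of 10 genes against 5.65% of all 16805 genes tested. No member was called higher, against 8.13% of all genes. The other 3 epithelial members had fold changes below 0 and Cdh2 one above 0, none past the threshold. Within c-Myc-high cells 2 genes were lower, Cdh3 and Trp63, against 2.31% of all genes. Within c-Myc-low cells 4 were lower, Cldn1, Esrp1, Esrp2 and Trp63, against 1.74% of all genes. The 2 within-class comparisons share no library, but they come from 1 fit with 1 shared estimate of spread and are not fully independent. In such bulk samples fewer cells of a type and less RNA per cell cannot be told apart. With DESeq2 4 members were called within c-Myc-high cells, all lower. It called 8 within c-Myc-low cells (7 lower, 1 higher) and 10 over both classes (9 lower, 1 higher). The shares of all genes called in either direction were 22.3%, 10.8% and 25.3%. Of those calls 1266, 664 and 1409 were lower and 2038, 1044 and 2590 higher. With limma-voom 10 were called within c-Myc-low cells, 9 lower and 1 higher, against 23.5% of all genes in either direction. Within c-Myc-high cells limma on RPKM called 1, which was lower, against 1.65% in either direction. The 6 metastatic and 4 primary libraries did not overlap for Cdh3, Esrp1, Esrp2, Trp63 and Cldn1, all lower in metastatic cells, against 3.98% of all genes. Within c-Myc-high cells the same 5 did not overlap, against 8.18% of all genes that were lower in this way. Within c-Myc-low cells the 9 epithelial members were lower without overlap and Cdh2 was higher, against 16.1% and 28.2% of all genes. Over all tested genes the median log2 fold change was 0.28.

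**Figure D2:**
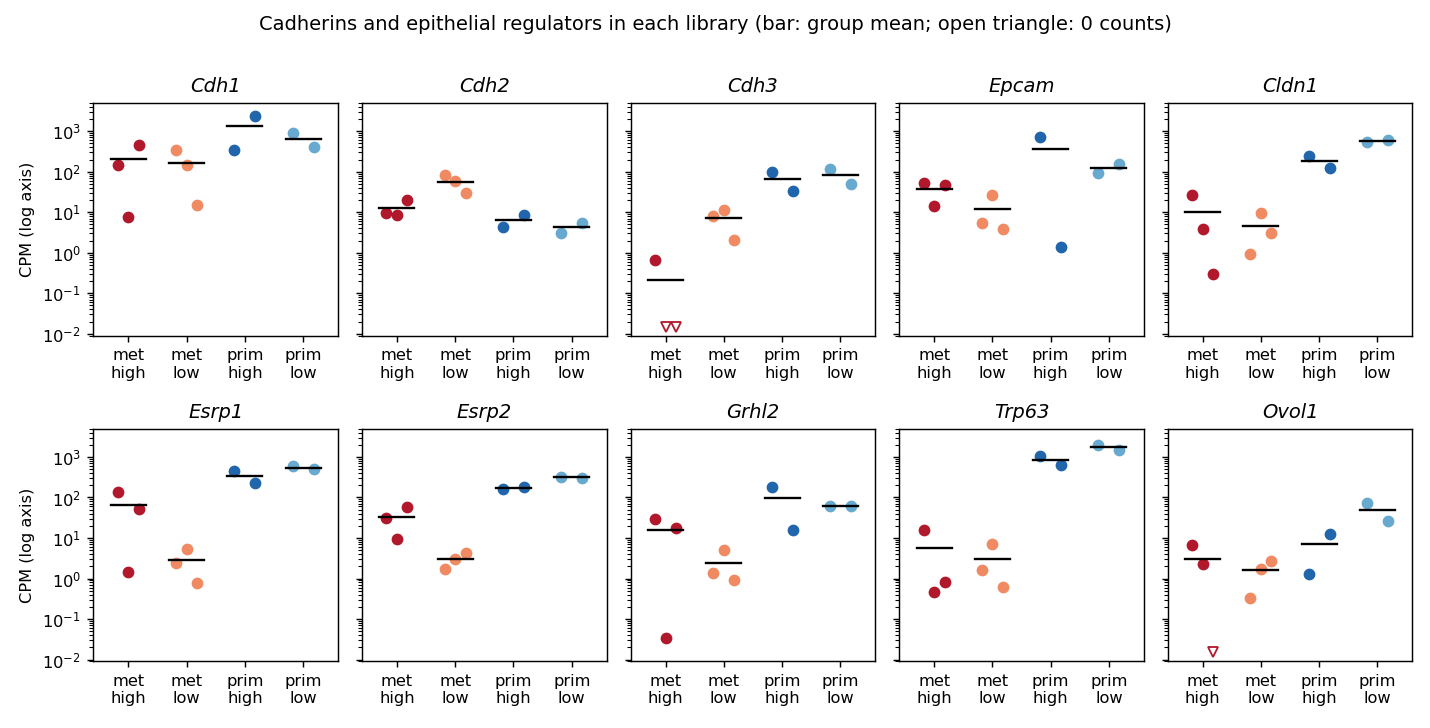
CPM (log axis) of each gene in every library, by group (met, metastatic; prim, primary; high and low, the c-Myc class). Bars are group means and open triangles are libraries with 0 counts. Trp63 is at 0.477 to 15.4 CPM in the 6 metastatic libraries and at 639.5 to 1960.1 CPM in the 4 primary libraries, while Cdh2 is highest in metastatic c-Myc-low cells.

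The count of members called moved with the libraries kept, as did that of all genes. Shares of all genes in this paragraph count calls in either direction. A further fit left out metastatic c-Myc-high replicates 1 and 3, a choice made after seeing the data. It leaves 1 library in that group and assumes it varies like the others, so calls that use this group are not counted here. Within c-Myc-high cells the fit gave log2 fold changes of -4.87 for Esrp2, -8.54 for Esrp1 and -0.29 for Cdh2. In the same fit 6 members were called within c-Myc-low cells, against 3.66% of all genes. Leaving out primary c-Myc-high replicate 1 left 1 call within c-Myc-high cells, against 2.35% of all genes. Within c-Myc-low cells 1 call was left without metastatic replicate 1 or 3, against 0.954% and 0.801% of all genes. There 2 calls were left without metastatic replicate 2, primary replicate 1 or primary replicate 2, against 0.776%, 0.813% and 0.868% of all genes.

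Cdh1, on chr8:106603351-106670246 of GRCm38, encodes E-cadherin, the adhesion molecule of the epithelial adherens junction. It had 148, 7.59 and 449.6 CPM in metastatic c-Myc-high libraries and 344, 146 and 15.3 CPM in metastatic c-Myc-low libraries. In primary cells it had 338 and 2378 CPM in c-Myc-high libraries and 914 and 399.8 CPM in c-Myc-low libraries. Metastatic c-Myc-high replicate 2 and c-Myc-low replicate 3 were far below the rest. These 2 libraries had the highest leukocyte marker sums, 14861 and 12657 CPM against at most 5230 CPM in the other 8, and the part of leukocytes in the Cdh1 values was not tested. Of the other 4 metastatic libraries 2 lay within the primary range, at 449.6 and 344 CPM. The log2 fold change over both classes was -2.53 (SE 1.02, adjusted p = 0.120), while c-Myc-high cells gave -2.91 (SE 1.46, adjusted p = 0.223) and c-Myc-low cells -2.14 (SE 1.44, adjusted p = 0.618). The change over both classes was -5.25 without the 2 salivary-rich libraries, in which Cdh1 had 148 and 449.6 CPM. That fit leaves 1 metastatic c-Myc-high library, replicate 2, at 7.59 CPM. Without primary c-Myc-high replicate 2, the change in c-Myc-high cells was -0.54 with an adjusted p of 0.853. Transcript Cdh1-201 carried 51.4% of the summed count in metastatic c-Myc-high replicate 1, 100% in the other 5 metastatic libraries and 96.7% to 100% in primary libraries.

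Cdh2 encodes N-cadherin, the cadherin of neural and mesenchymal cells. It had 9.55, 8.33 and 20.3 CPM in metastatic c-Myc-high libraries and 82.2, 59.4 and 29.7 CPM in metastatic c-Myc-low libraries. In primary cells it had 4.34 and 8.39 CPM in c-Myc-high libraries and 3.02 and 5.41 CPM in c-Myc-low libraries. All 3 metastatic c-Myc-low libraries were above every other library, while metastatic and primary c-Myc-high libraries overlapped, 8.33 against 8.39 CPM. Metastatic over primary, the log2 fold change for c-Myc-low cells was 3.53 (SE 1.07, adjusted p = 0.122) and that for c-Myc-high cells 0.84 (SE 0.96, adjusted p = 0.598). Over both classes it was 2.19 (SE 0.71, adjusted p = 0.0608). DESeq2 gave 2.14 with an adjusted p of 0.00709 for the same contrast, and in c-Myc-high cells the fold change turned to -0.29 without the salivary-rich libraries. The site effects in the 2 classes differed by -2.69 (SE 1.34, unadjusted p = 0.0684, adjusted p = 0.739), so that their difference was not past the threshold.

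Set side by side per transcript length, in RPKM (the authors' reads scaled to length and depth), Cdh1 and Cdh2 gave a balance for each library. The log2 ratio of Cdh1 to Cdh2 was 3.85, -0.24 and 4.04 in metastatic c-Myc-high libraries and 1.87, 1.08 and -0.99 in metastatic c-Myc-low libraries. It was 5.92 and 7.30 in primary c-Myc-high libraries and 7.42 and 5.35 in primary c-Myc-low libraries. All 6 metastatic libraries were thus below all 4 primary libraries, and Cdh2 exceeded Cdh1 in 2 libraries, metastatic c-Myc-high replicate 2 and c-Myc-low replicate 3, which are those with the highest leukocyte marker sums. The other 4 metastatic libraries, at 1.08 to 4.04, were also below the lowest primary library. Group means were 2.55 ± 2.42 (SD, n = 3) for metastatic c-Myc-high, 0.65 ± 1.48 (SD, n = 3) for metastatic c-Myc-low, 6.61 ± 0.98 (SD, n = 2) for primary c-Myc-high and 6.39 ± 1.47 (SD, n = 2) for primary c-Myc-low libraries. A pseudocount of 0.1 RPKM was added to both genes, and no test was made of this ratio. In the c-Myc-high libraries the lower ratio came with little Cdh2: 0.379 to 0.584 RPKM in metastatic and 0.176 and 0.242 RPKM in primary libraries. In c-Myc-low libraries Cdh2 stood at 1.23 to 4.98 RPKM in metastatic and 0.173 and 0.186 RPKM in primary cells.

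**Figure D3:**
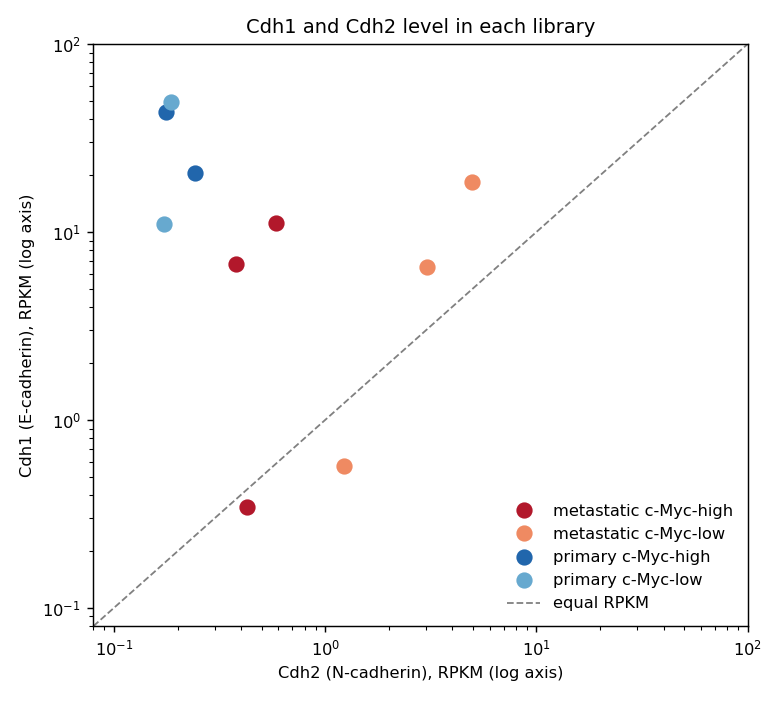
Cdh1 against Cdh2 in RPKM (both log axes), 1 point per library, with a dashed line of equal level. The 6 metastatic libraries sit at 0.379 to 4.98 RPKM of Cdh2 and 0.345 to 18.5 RPKM of Cdh1, with 2 of them below the line. The 4 primary libraries sit far above it, at 0.173 to 0.242 RPKM of Cdh2 and 11.02 to 49.1 RPKM of Cdh1.

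Cdh3, on chr8:106510891-106557297, encodes P-cadherin, the cadherin of basal epidermal cells and hair follicles. It had 0.649, 0 and 0 CPM in metastatic c-Myc-high libraries and 8.07, 11.2 and 2.11 CPM in metastatic c-Myc-low libraries, against 97.8 and 32.6 CPM in primary c-Myc-high and 119 and 49.98 CPM in primary c-Myc-low libraries. The 3 ranges of metastatic c-Myc-high, metastatic c-Myc-low and primary libraries did not overlap. The log2 fold change over both classes was -5.90 (SE 0.87, adjusted p = 0.00147). The metastatic c-Myc-high group held 3 counts in all, against 548 in the primary c-Myc-high group. That is a ratio of 312 between the groups' shares, with an exact 95% interval of 106 to 1516 that covers counting error only. A count of 3, the limit that 0 counts allows, stood for 0.693 and 1.14 CPM in the 2 libraries at 0. Within c-Myc-high cells the adjusted p was 0.00932, and 0.0548 in a fit of the c-Myc-high groups alone and 0.0735 with limma on RPKM. The fit without the salivary-rich libraries, which leaves 1 metastatic c-Myc-high library, did not keep the call either. Within c-Myc-low cells the log2 fold change was -3.73 (SE 1.08, adjusted p = 0.104).

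Cdh3, Cdh1 and Esrp2 lie on one stretch of chromosome 8. Cdh3 ends 46.1 kb before Cdh1 begins, and Esrp2 lies 374 kb before Cdh3. Trp63 and Cldn1 are likewise neighbours on chromosome 16, 465 kb apart with 1 protein-coding gene between them. Over the 10 libraries log2 CPM of Trp63 and Cldn1 correlated at r = 0.97 and that of Esrp1 and Esrp2, on different chromosomes, at r = 0.94. The chromosome 8 pairs were lower, at r = 0.60 for Cdh1 and Cdh3, 0.54 for Cdh3 and Esrp2 and 0.67 for Cdh1 and Esrp2. All 10 points share library depth and the split by site, so these are descriptions.

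Epcam, on chr17:87635979-87651129, encodes a surface glycoprotein of epithelial cells and of epithelial tumours. It had 54.0, 14.2 and 47.2 CPM in metastatic c-Myc-high libraries and 5.39, 26.5 and 3.96 CPM in metastatic c-Myc-low libraries, against 706 and 1.39 CPM in primary c-Myc-high and 94.8 and 151 CPM in primary c-Myc-low libraries. Primary c-Myc-high replicate 2, the library with the fewest estimated counts, was the lowest of all 10 for Epcam and replicate 1 the highest, so the groups overlapped. The log2 fold change over both classes was -3.40 (SE 1.06, adjusted p = 0.0524). With primary c-Myc-high replicate 1 left out it turned to 0.38 (adjusted p = 0.820), and with primary c-Myc-high replicate 2 left out it was -3.89 (adjusted p = 0.0109). Within c-Myc-high cells alone the change was -3.20 (adjusted p = 0.194), and 4.46 once primary replicate 1 was left out (adjusted p = 0.201).

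Cldn1, on the minus strand at chr16:26356642-26371841, encodes claudin-1, the tight junction protein of the epidermal barrier. It had 26.2, 3.89 and 0.307 CPM in metastatic c-Myc-high libraries and 0.947, 9.45 and 3.14 CPM in metastatic c-Myc-low libraries, against 238 and 127 CPM in primary c-Myc-high and 529 and 621 CPM in primary c-Myc-low libraries. Every metastatic library was below every primary one. Over both classes the log2 fold change was -5.76 (SE 0.96, adjusted p = 0.00300). All 18 alternatives kept it past the threshold, among them fits that leave 1 library in a group. Within c-Myc-low cells it was -7.18 (SE 1.43, adjusted p = 0.0241), and within c-Myc-high cells -4.34 (SE 1.28, adjusted p = 0.0754).

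Of the 10 genes, Epcam and Cldn1 had a promoter window in the RefSeq table of build GRCm38.p6, and the 250 bases before each start are shown to give the letters around the starts of these surface and junction genes. In the Epcam line the capitals mark CAGGTG on either strand, the E-box that ZEB and SNAIL factors bind, and ACCGGT, the core of the Grainyhead-like octamer. In the Cldn1 line they mark CANNTG, the wider E-box, and GGGCGG, the Sp1 box. Both are given on the strand of the gene.
Epcam chr17:87635729-87635978 (plus strand): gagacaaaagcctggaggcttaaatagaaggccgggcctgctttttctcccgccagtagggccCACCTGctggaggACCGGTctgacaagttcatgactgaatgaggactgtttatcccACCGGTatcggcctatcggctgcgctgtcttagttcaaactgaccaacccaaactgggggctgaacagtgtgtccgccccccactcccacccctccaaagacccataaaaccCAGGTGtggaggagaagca
Cldn1 chr16:26371840-26372089 (minus strand): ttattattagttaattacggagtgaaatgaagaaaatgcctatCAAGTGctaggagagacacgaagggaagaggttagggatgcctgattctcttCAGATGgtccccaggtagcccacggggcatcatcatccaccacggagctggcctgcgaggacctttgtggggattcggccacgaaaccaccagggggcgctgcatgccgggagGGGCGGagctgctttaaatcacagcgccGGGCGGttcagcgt
The whole windows, which run on to 50 bases after the start, were searched on both strands. Epcam held CAGGTG 2 times, 187 and 19 bases before the start, and 20.2% of all 32851 windows held it at least once. CAGGTG is one spelling of CANNTG, which 72.3% of windows held. ACCGGT, searched after the data had been seen, was in Epcam 2 times, 174 and 131 bases before the start, and in 2.33% of windows. The full octamer AACCGGTT, which contains ACCGGT, was in neither gene and in 0.146% of windows. Cldn1 held CANNTG 2 times and GGGCGG 2 times, the last of these in 35.7% of windows, and neither CAGGTG nor ACCGGT. Epcam also held GGGCGG 1 time, on the opposite strand 58 bases before the start and not marked in its line. It held CANNTG 3 times, the 2 CAGGTG matches included. A match is a stretch of letters, not a bound site.

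Esrp1 and Esrp2 encode the epithelial splicing regulatory proteins, RNA-binding proteins that set the epithelial exon choice of genes such as Fgfr2 and Cd44. Esrp1, on chr4:11331933-11386783, had 139, 1.43 and 52.4 CPM in metastatic c-Myc-high libraries and 2.36, 5.23 and 0.775 CPM in metastatic c-Myc-low libraries, against 459 and 224 CPM in primary c-Myc-high and 584 and 510.3 CPM in primary c-Myc-low libraries. Esrp2, on chr8:106130319-106136974, had 31.4, 9.52 and 57.6 CPM in metastatic c-Myc-high libraries and 1.68, 2.96 and 4.24 CPM in metastatic c-Myc-low libraries, against 163 and 178 CPM in primary c-Myc-high and 323 and 309.7 CPM in primary c-Myc-low libraries. Metastatic libraries were below primary libraries for both genes without overlap. Among metastatic libraries the highest values of both were in c-Myc-high replicates 1 and 3, the 2 libraries rich in salivary transcripts.

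Over both classes the log2 fold change was -4.69 for Esrp2 (SE 0.64, adjusted p = 0.000924) and -5.14 for Esrp1 (SE 0.95, adjusted p = 0.00546). With the highest transcript standing for the gene in place of the sum, Esrp1 had an adjusted p of 0.0687. Its count was spread over 7 transcripts, and the leading one differed between libraries of a group. In primary c-Myc-high cells Esrp1-206 led replicate 1 with 50.2% and Esrp1-204 led replicate 2 with 54.9%, while Esrp1-201 led both primary c-Myc-low libraries with 51.9% and 56.8%. Within c-Myc-low cells the changes were -6.88 for Esrp2 (SE 0.996, adjusted p = 0.00384) and -7.78 for Esrp1 (SE 1.499, adjusted p = 0.0195). Within c-Myc-high cells they were -2.51 for Esrp2 (SE 0.84, adjusted p = 0.103) and -2.50 for Esrp1 (SE 1.22, adjusted p = 0.214). Without the salivary-rich libraries these were -4.87 for Esrp2 and -8.54 for Esrp1. That fit leaves 1 metastatic c-Myc-high library, replicate 2, which had the highest leukocyte marker sum (14861 CPM).

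**Figure D4:**
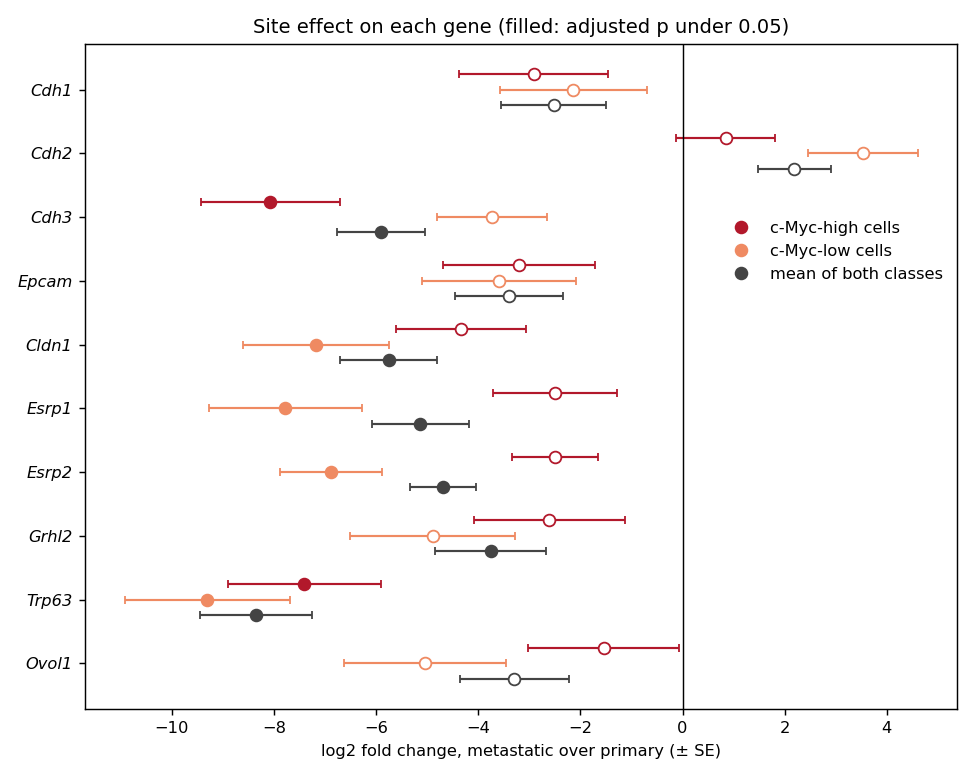
Log2 fold change of each gene, metastatic over primary, with its standard error, in c-Myc-high cells, in c-Myc-low cells and as the mean of both classes. Filled points have an adjusted p under 0.05. Cdh2 is the only gene right of 0, and Trp63 is furthest left in c-Myc-low cells, at -9.31.

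Grhl2, on chr15:37233036-37363569, encodes a Grainyhead-like transcription factor that holds up Cdh1 and other junction genes in epithelia. It had 30.0, 0.0350 and 17.9 CPM in metastatic c-Myc-high libraries and 1.40, 4.99 and 0.931 CPM in metastatic c-Myc-low libraries, against 179.9 and 15.7 CPM in primary c-Myc-high and 63.0 and 61.9 CPM in primary c-Myc-low libraries. Primary c-Myc-high replicate 2 lay within the metastatic range. Grhl2 fell by 3.75 on the log2 scale over both classes (SE 1.09, adjusted p = 0.0407), and this call was lost in 11 of 18 alternatives, with adjusted p up to 0.165. These 11 included leaving out any 1 library except metastatic c-Myc-high replicate 2 and primary c-Myc-high replicate 2. In metastatic c-Myc-high replicate 2 Grhl2 held 0.151 estimated counts in all, too few for a share of a transcript. In the other metastatic libraries Grhl2-205, a processed transcript, carried 47.9% to 100% of the count, on totals of 4.41 to 133 counts. Its share was 93.0% and 100% in primary c-Myc-high libraries and 13.8% and 49.6% in primary c-Myc-low libraries, so that no 1 share holds for the primary site. The metastatic shares, at such low totals, were not set against the primary ones.

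Trp63, on chr16:25683763-25892102, encodes p63, the transcription factor that basal keratinocytes and other stratified epithelia need. Of the 10 genes it had the most negative fold change over both classes. Its level was 15.4, 0.477 and 0.805 CPM in metastatic c-Myc-high libraries and 1.62, 7.04 and 0.622 CPM in metastatic c-Myc-low libraries, against 1071 and 639.5 CPM in primary c-Myc-high and 1960.1 and 1503 CPM in primary c-Myc-low libraries. The highest metastatic library was far below the lowest primary one. The log2 fold change was -8.35 over both classes (SE 1.10, adjusted p = 0.000720), -7.40 in c-Myc-high cells (SE 1.499, adjusted p = 0.0225) and -9.31 in c-Myc-low cells (SE 1.61, adjusted p = 0.0104). All 18 alternatives kept the call over both classes, among them fits that leave 1 library in a group. Within c-Myc-high cells the adjusted p was 0.0707 in a fit of the c-Myc-high groups alone and 0.0548 with the replicate number as a block. The fits without the salivary-rich libraries and without primary c-Myc-high replicate 1 each leave 1 library in a group, and neither kept the call. By group mean the level of Trp63 per length was the highest of the 10 genes in both primary groups, at 52.1 RPKM in c-Myc-high and 74.6 RPKM in c-Myc-low cells. It led both primary c-Myc-low libraries, but in primary c-Myc-high replicate 1 Epcam was higher (93.2 against 88.0 RPKM) and in replicate 2 Cdh1 was (43.4 against 16.2 RPKM).

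Trp63 has 2 promoters. The upstream one gives the TA forms, which carry a transactivation domain, and the internal one gives the delta N forms, the main forms of basal keratinocytes. The 2 starts, at positions 25683763 and 25801916 of chromosome 16, are 118153 bases apart, and 4 deposited transcripts belong to each. The coding sequences around the junction of the form-specific part, in capitals, with the first shared exon, in lower case, show what tells them apart. The TA line shows the last 36 of 324 specific coding bases, at chr16:25764261-25764296, and the delta N line all 42 of its own, at chr16:25802060-25802101. The shared exon begins at 25820388, and both are on the plus strand of GRCm38.
TA form: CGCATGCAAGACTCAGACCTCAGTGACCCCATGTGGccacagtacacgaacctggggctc
delta N form: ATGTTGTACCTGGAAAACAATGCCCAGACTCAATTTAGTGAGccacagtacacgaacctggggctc
The delta N rows carried 59.3% to 100% of the Trp63 count in metastatic libraries, on totals of only 2.07 to 68.0 counts. Their share was 92.7% and 91.1% in primary c-Myc-high and 95.9% and 87.0% in primary c-Myc-low libraries. In 3 metastatic libraries the share was the same, 79.97%, and the rows Trp63-205 and Trp63-201 carried equal counts throughout, so the deposited shares at such low totals were not set against the primary ones. Neither promoter's rows overlapped between sites. Summed RPKM of the delta N rows was 0.0151 to 0.713 in metastatic and 13.6 to 102.8 in primary libraries, and that of the TA rows was 0 to 0.236 in metastatic and 2.57 to 11.8 in primary libraries.

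**Figure D5:**
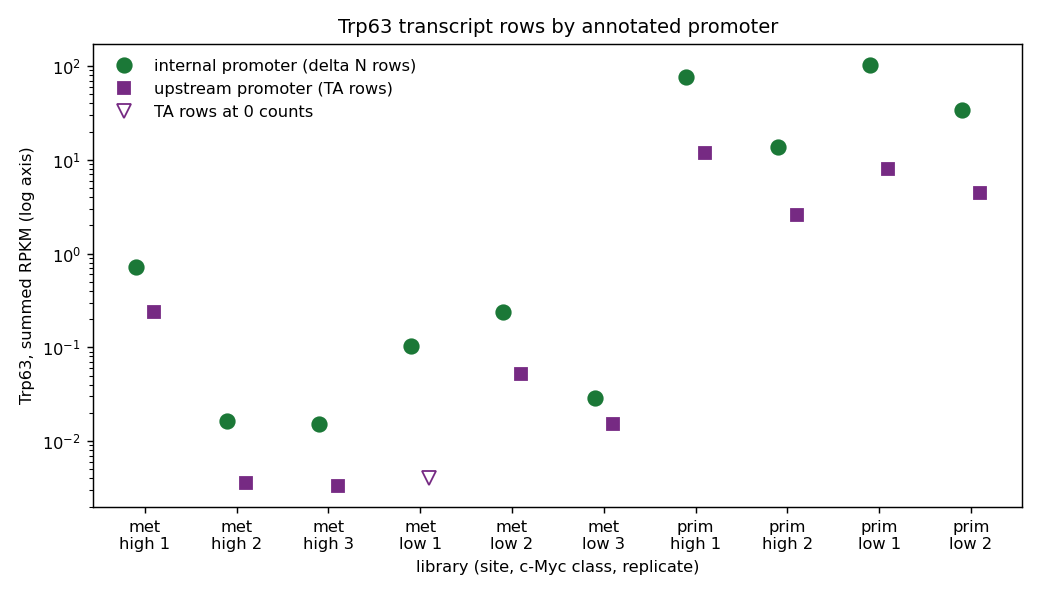
Summed RPKM (log axis) of the Trp63 transcript rows of the internal promoter (delta N, circles) and the upstream promoter (TA, squares) in each library. The open triangle marks TA rows at 0 counts. Delta N rows sit above TA rows in every library, at 0.0151 to 0.713 RPKM in metastatic and 13.6 to 102.8 RPKM in primary cells.

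Ovol1, on the minus strand at chr19:5549136-5560646, encodes a zinc finger transcriptional repressor that acts in the differentiation of epidermal cells and represses Zeb1 in epithelial cells. It had 6.61, 2.31 and 0 CPM in metastatic c-Myc-high libraries and 0.333, 1.71 and 2.74 CPM in metastatic c-Myc-low libraries, against 1.31 and 12.7 CPM in primary c-Myc-high and 73.9 and 27.0 CPM in primary c-Myc-low libraries. Only the primary c-Myc-low libraries stood clear of the rest. The log2 fold change over both classes was -3.30 (SE 1.07, adjusted p = 0.0601), with 4 of 18 alternatives past the threshold. In c-Myc-low cells it was -5.04 (SE 1.59, adjusted p = 0.135), and in c-Myc-high cells -1.55 (SE 1.48, adjusted p = 0.519), turning to 1.07 without primary c-Myc-high replicate 2.

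The c-Myc sort itself moved none of the 10 genes past the threshold. In metastatic cells edgeR called 0 of all genes in either direction, with 4.80% at an unadjusted p under 0.05, and DESeq2 called 0.533%. The log2 fold change of metastatic c-Myc-high over metastatic c-Myc-low cells was 4.10 for Esrp2 (SE 0.86, unadjusted p = 0.000472, adjusted p = 0.617) and 5.16 for Esrp1 (SE 1.31, adjusted p = 0.786). DESeq2 gave adjusted p-values of 0.000291 for Esrp2 and 0.00170 for Esrp1, and edgeR called both without metastatic c-Myc-high replicate 2, against 0.199% of all genes. Without the 2 salivary-rich libraries, in a fit that leaves 1 metastatic c-Myc-high library, edgeR gave 1.77 for Esrp2 and -0.88 for Esrp1. Grhl2 gave 3.41 with all libraries and -6.32 without those 2. Cdh3 ran the other way, with 0.649, 0 and 0 CPM in c-Myc-high against 8.07, 11.2 and 2.11 CPM in c-Myc-low metastatic libraries and a log2 fold change of -4.15 (SE 1.199, adjusted p = 0.935). Metastatic c-Myc-high libraries lay above metastatic c-Myc-low ones without overlap for Esrp2, against 1.23% of all genes, and below them for Cdh2 and Cdh3, against 14.0%.

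In primary cells the comparison of c-Myc-high with c-Myc-low libraries gave no member an unadjusted p under 0.05, against 11.6% of all genes, and edgeR called 0 genes in all. Esrp1, Esrp2, Trp63, Ovol1 and Cldn1 were lower in both primary c-Myc-high libraries than in both c-Myc-low ones, and 40.2% of all genes were split in that way. The site effect did not differ between the c-Myc classes at the threshold for any gene tested. The difference was 4.38 for Esrp2 (SE 1.25, adjusted p = 0.724), 5.28 for Esrp1 (SE 1.86, adjusted p = 0.724) and -4.34 for Cdh3 (SE 1.65, adjusted p = 0.724) on the log2 scale. These 3 were the members with an unadjusted p under 0.05, against 6.84% of all genes. DESeq2 called none of the 10 in either comparison, against 3% of all genes between the primary classes and 0.613% for the difference.

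The genes that work with these 10 were read from lists chosen with earlier results known. Of 12 other cadherins and catenins, 10 were tested for the site effect over both classes. Of these 3 were lower and 1 higher, against 5.65% and 8.13% of all genes. Jup, plakoglobin of the desmosome and adherens junction, fell by 5.10 on the log2 scale (SE 0.89, adjusted p = 0.00392), with 92.9, 7.21, 282, 17.3, 39.0 and 12.2 CPM in metastatic against 2223, 2876, 1498 and 774 CPM in primary libraries. Cdh13, the cadherin without a cytoplasmic tail, fell by 3.36 (adjusted p = 0.0256) and Ctnnal1 by 1.88 (adjusted p = 0.0426). Both calls were lost in some alternatives, with 10 of 18 kept for Cdh13 and 6 of 18 for Ctnnal1. Cdh5, the cadherin of endothelial cells, was 5.11 higher (adjusted p = 0.0406), kept in 6 of 18 alternatives, where the 12 endothelial markers summed to 119.6 to 645 CPM in metastatic against 6.84 to 19.6 CPM in primary libraries. The catenins that bind E-cadherin directly or through each other, Ctnnb1 (0.94, adjusted p = 0.551), Ctnna1 (-0.42, adjusted p = 0.616) and Ctnnd1 (-1.14, adjusted p = 0.134), were not past the threshold.

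Of 11 transcription factors of the epithelial-mesenchymal transition, 7 were tested. Of these 2 were higher and 0 lower, against 8.13% and 5.65% of all genes. Zeb1, a repressor of Cdh1, had 47.7, 175 and 69.1 CPM in metastatic c-Myc-high and 146, 306 and 222 CPM in metastatic c-Myc-low libraries, against 13.9 and 0.377 CPM in primary c-Myc-high and 4.74 and 12.6 CPM in primary c-Myc-low libraries. Zeb2 had 154, 251 and 696 CPM in metastatic c-Myc-high and 1338, 1005 and 519.6 CPM in metastatic c-Myc-low libraries, against 128 and 65.3 CPM in primary c-Myc-high and 25.4 and 62.9 CPM in primary c-Myc-low libraries. Metastatic libraries were above primary ones without overlap for both, and for 5 of the 11 listed factors in all. The share of all genes split in this direction is not given here. Fold changes on the log2 scale were 3.95 for Zeb1 (SE 0.79, adjusted p = 0.00817) and 3.01 for Zeb2 (SE 0.68, adjusted p = 0.0140), and neither call held without primary c-Myc-low replicate 1 (adjusted p = 0.0703 for Zeb1 and 0.104 for Zeb2). The Zeb2 call was also lost, at an adjusted p of 0.0591, on leaving out primary c-Myc-high replicate 1. The replicate block lost it too, at an adjusted p of 0.0685. Leukocytes, endothelial cells and melanocytes are known to express Zeb factors, and 10 of 12 leukocyte, 6 of 12 endothelial and 4 of 12 tested melanocyte markers were also called higher in metastatic cells. Their part in the Zeb values was not tested. Tcf4 gave 1.83 (adjusted p = 0.0564) and Snai2, known in melanocytes and keratinocytes, -1.09 (adjusted p = 0.499).

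In the same comparison 5.65% of all genes were lower and 8.13% higher. Of 14 other epithelial transcription factors, 11 were tested, 8 were lower and 0 higher, with a median log2 fold change of -4.66. The lowest p belonged to Tfap2c, which fell by 7.98, Klf5, by 4.80, and Grhl1, by 6.43 (adjusted p = 0.00103, 0.00159 and 0.00168). All 3 are known in epidermis. Of 16 epithelial surface proteins and proteases, all tested, 9 were lower and 1 higher, with a median of -3.61. Tmprss4, a membrane serine protease, fell by 9.10, and Perp, a desmosome protein, by 8.33. The 1 higher gene was Ceacam1 (6.94, adjusted p = 0.00591), an adhesion molecule also known on leukocytes and endothelium. Of 21 tight junction and polarity genes in the table, 20 were tested, 2 were lower and 0 higher. These were Crb3 (-3.43, adjusted p = 0.0237, kept in 9 of 18 alternatives) and Lsr (-5.48, adjusted p = 0.0414, kept in 6 of 17), and Lsr changed to -2.49 without primary c-Myc-high replicate 2.

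The cell type lists gave, beside 18 of 18 keratinocyte markers lower, 4 of 12 tested melanocyte markers higher and 0 lower in metastatic cells, among them Pmel (2.63, adjusted p = 0.00768) and Slc45a2 (3.83, adjusted p = 0.0106). Of 12 leukocyte markers 10 were higher, of 12 endothelial markers 6, of 15 tested salivary gland markers 6 and of 7 tested Langerhans and antigen-presenting markers 2, with none lower in these lists. Of 10 fibroblast markers 1 was lower, Postn (-3.82, adjusted p = 0.00715), and none higher. Over all genes tested 5.65% were lower and 8.13% higher in this comparison.

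Among the 10 genes, the mean level per length put Cdh1 first in both metastatic groups, at 6.09 ± 5.44 RPKM (SD, n = 3) in c-Myc-high and 8.53 ± 9.13 RPKM (SD, n = 3) in c-Myc-low cells. Cdh1 was the highest of the 10 in 3 of 6 metastatic libraries. Esrp1 led c-Myc-high replicate 1 (12.5 RPKM), Epcam c-Myc-high replicate 2 (1.39 RPKM) and Cdh2 c-Myc-low replicate 3 (1.23 RPKM). By group mean Cdh2 was seventh in metastatic c-Myc-high and second in metastatic c-Myc-low cells, and last in both primary groups. By mean RPKM of Cdh1 both metastatic groups came below both primary groups, and no neighbours in the order were separated, since their libraries overlapped. By mean RPKM of Cdh2 the metastatic c-Myc-low group came first and the metastatic c-Myc-high group second, each clear of the next, and the primary groups overlapped. In CPM, by contrast, metastatic and primary c-Myc-high libraries overlapped, at 8.33 against 8.39 CPM.

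The genes whose log2 CPM followed Cdh1 most closely over the 10 libraries were Celsr2 (r = 0.97), Kif1c, Ryk, Mboat2 and Pcgf2 (each r = 0.96). For Cdh2 they were Ryr3 and Nid1 (r = 0.95 each), BC100451 and Prrg1 (r = 0.94 each) and Akap2 (r = 0.93). Between members the closest pairs were Trp63 with Cldn1 (r = 0.97), Esrp1 with Grhl2 (r = 0.95) and Esrp1 with Esrp2 (r = 0.94), while Cdh1 and Cdh2 gave r = -0.17. These are likenesses over 10 points in 4 groups, described without a test.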

How the data were processed

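Per the labels' protocols, RNA of sorted cells was amplified with a Nugen system before sequencing (Illumina), giving 10 libraries. The authors deposited estimated counts for 92214 transcript rows, not scaled between libraries, and RPKM values that they scaled to transcript length and depth. Bowtie2, limma and mm10 appear in the submitters' processing notes. Which program assigned reads to transcripts, and whether by strand, is not given in the sources used here. Counts were summed per gene name and rounded. CPM divides by a library's total. Genes passing filterByExpr (16805, all 10 members among them) were fitted with edgeR 4.0.16 in R 4.3.3 (TMM, robust quasi-likelihood, 4 groups sharing 1 estimate of spread, biological coefficient of variation 0.876). Adjusted p-values are edgeR's, by Benjamini-Hochberg over all genes tested, unless another tool is named, and genes under 0.05 were called. Alternatives used DESeq2 1.42.0, limma 3.58.1, other scaling, filters and libraries left out. Counts of alternatives that keep a call include the fits that leave 1 library in a group. The fits were tested on simulated data. Chi-square per degree of freedom between replicates was 44.7 to 222, so no library repeated another.

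The members, the lists and the marker sets were chosen with earlier results of these data known. Named genes were all members, the 4 of each list with the lowest p over both classes, those of the cadherin and transition factor lists, and the 5 most like Cdh1 and Cdh2. Of these, the text gives the genes the lists turn on. Positions are 1-based from GENCODE M21 (GRCm38, the assembly of mm10), in which all 39 member transcripts and 95.7% of all rows were found. Promoters are RefSeq's (GRCm38.p6), with 2 of 10 members matched.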

Additional observations from a re-analysis of the deposited data

How the results depend on the processing

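Over both c-Myc classes, Trp63, Esrp2, Cdh3 and Cldn1 stayed lower and past the threshold in all 18 alternatives. Among these are fits that leave 1 library in a group. Counts of members called were 4, 8 and 10 with DESeq2 in c-Myc-high cells, c-Myc-low cells and over both classes (main counts 2, 4 and 6). DESeq2 called 22.3%, 10.8% and 25.3% of all genes there. In c-Myc-high against c-Myc-low metastatic cells it called 2 members (main 0), against 0.533% of all genes. Shares of all genes in this paragraph count calls in either direction. Within c-Myc-low cells limma-voom called 10 and a fit of those groups alone 9, against 23.5% and 14% of all genes. Within c-Myc-high cells limma on RPKM called 1 and a fit of those groups alone with edgeR 0, against 1.65% and 1.12% of all genes. The edgeR fit without the salivary-rich libraries leaves 1 metastatic c-Myc-high library, so its calls within c-Myc-high cells are not counted here. Leaving out each library in turn gave 1 to 3 in c-Myc-high cells and 1 to 5 in c-Myc-low cells. The shares of all genes were 1.65% to 6.98% and 0.776% to 3.42%. It gave 5 to 7 over both classes, against 3.97% to 16.7% of all genes. For the sort in metastatic cells it gave 0 to 2, against 0% to 0.199%.

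Same-numbered libraries correlated at 0.0872, -0.193 and -0.305 (metastatic) and 0.0774 (primary) in their deviations, and at -0.0947 to 0.153 between sites. With 2 primary libraries a group, values for replicates 1 and 2 of the 2 primary groups are equal by construction. Not every pair was over 0.1, so the numbers were not taken to pair samples. With the replicate block, 1, 2 and 5 members were called in c-Myc-high cells, c-Myc-low cells and over both classes. The shares of all genes called in either direction were 0.893%, 0.833% and 5.74%. Twist1 turned to 1.05 over both classes in that fit.

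Without the salivary-rich libraries Cdh2 turned to -0.29 (c-Myc-high cells), Cdh11 to -0.73 and Ctnnb1 to -1.07 (both classes), Esrp1 to -0.88 and Grhl2 to -6.32 (the sort in metastatic cells), and Esrp1 to -0.71 (difference between classes). Col3a1 turned to 1.99 with limma-voom and 0.50 with limma on RPKM, Twist1 to 1.66 and 0.60, and Tcf3 to 0.037 with limma on RPKM. Leaving out 1 library gave, at the lowest and highest, -4.10 to 4.46 for Epcam and -3.07 to 1.07 for Ovol1 in c-Myc-high cells, and over both classes -4.11 to 0.38 for Epcam, -2.16 to 3.10 for Col3a1, -1.10 to 0.71 for Tcf3 and -1.06 to 2.71 for Twist1. The ratio of Cdh1 to Cdh2 with 1 RPKM added was 4.68 in primary c-Myc-high and 4.38 in primary c-Myc-low cells. The causes were not tested. The all-gene median in c-Myc-high cells was 0.38 with TMM and 0.28 with DESeq2-type factors. At this depth 3 counts stood for 0.438 to 1.87 CPM.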
